A study of Mus musculus with 2 samples.

Results

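In a CITEseq experiment on mouse lymph node DCs, 241 of 11067 droplets with expression values had no antibody data, hence no DC class, and no UMI of *Cd3e* or *Trac*, the transcripts by which the authors marked droplets that may hold a T cell. These are called unclassified droplets here. They were chosen by 2 labels that the authors deposited for each droplet, the DC class and the *Cd3e* and *Trac* label, and 192 came from the naive library and 49 from the papain one. They made up 5.53% of the 3471 naive droplets and 0.645% of the 7596 papain droplets. No other expression value entered the choice, and the only genes it fixed are *Cd3e* and *Trac*, at 0 in every one of them. The 2860 naive and 6984 papain droplets that had a class and likewise no *Cd3e* or *Trac* UMI, called classified DCs here, served as the comparison within each library. The naive library, which held most of the unclassified droplets, is described first.

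Both libraries were made from B6 mice, whose live MHCIIhi CD11c+ B220- cells were sorted after staining with DNA-barcoded antibodies to 12 surface proteins. The papain library came from mice given 5 µg OVA plus 50 µg papain, a protease that primes type 2 immunity, in both rear footpads 1 day before. Naive mice were not immunized. The methods give popliteal nodes for the immunized mice and pooled skin-dLNs for the naive mice, while the deposited protocol names popliteal nodes for both, so node site and immunization cannot be told apart. With 1 library per condition there is no replicate and no test was made. All 95% intervals are exact and cover counting error only. Apart from *Lyz2* in the closing sections, levels were not compared between the libraries.

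CITEseq reads RNA and antibody tags from the same droplet, and the 2 readouts are joined by the cell barcode. A droplet that enters only the RNA table keeps its transcripts but not the surface proteins by which DC subsets are told apart. Migratory DCs carry antigen from the skin to the node, and are known for *Ccr7*, the receptor that guides them there, *Fscn1*, an actin-bundling protein, and high MHC class II, the molecules that present antigen to CD4+ T cells. *Cd74* encodes the invariant chain that accompanies class II, and *H2-Aa*, *H2-Ab1* and *H2-Eb1* encode class II chains. B cells express class II too, whereas resting mouse T cells and NK cells express little.

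Most unclassified droplets carried class II transcripts. These do not tell DCs from B cells, and the B cell-like droplets described below are included in the medians. Per droplet, *Cd74* ran from 0 to a median of 4152 and a highest value of 19444 CPM (UMIs per 1000000 UMIs of the droplet) in the 192 naive droplets, of which 191 had a UMI. In classified naive DCs the median was 2982 CPM. For *H2-Aa* the median was 1267 CPM, with a UMI in 186 droplets, against 828 CPM in classified DCs. The naive droplets had the higher median for both genes and lay within the range of the classified DCs, whose highest levels were 45548 CPM for *Cd74* and 21316 CPM for *H2-Aa*. The median papain *Cd74* level was 2855 CPM, with a highest value of 29237 CPM and a UMI in 43 of 49 droplets, against 2392 CPM in classified DCs. The median of *H2-Aa* was 808 CPM in these droplets and 459 CPM in classified DCs.

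The summed level of *Cd74*, *H2-Aa*, *H2-Ab1* and *H2-Eb1* had a median of 158% of the classified median in naive and 120% in papain unclassified droplets. In droplets that lacked antibody data but had a *Cd3e* or *Trac* UMI, it was 3.32% (naive) and 3.39% (papain). Less than 10% of the classified median was found in 4 of 192 naive unclassified droplets (2.08%, interval 0.570 to 5.25%) and in 7 of 49 papain ones (14.3%, interval 5.94 to 27.2%). The corresponding share of classified DCs was 1.26% (naive) and 2.12% (papain). Between 5% and 20% of the classified median, close to the limit, lay 6 naive and 5 papain unclassified droplets. All 11 droplets below the limit fell into 1 cluster of T cell and NK cell genes, described below.

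**Figure D1:**
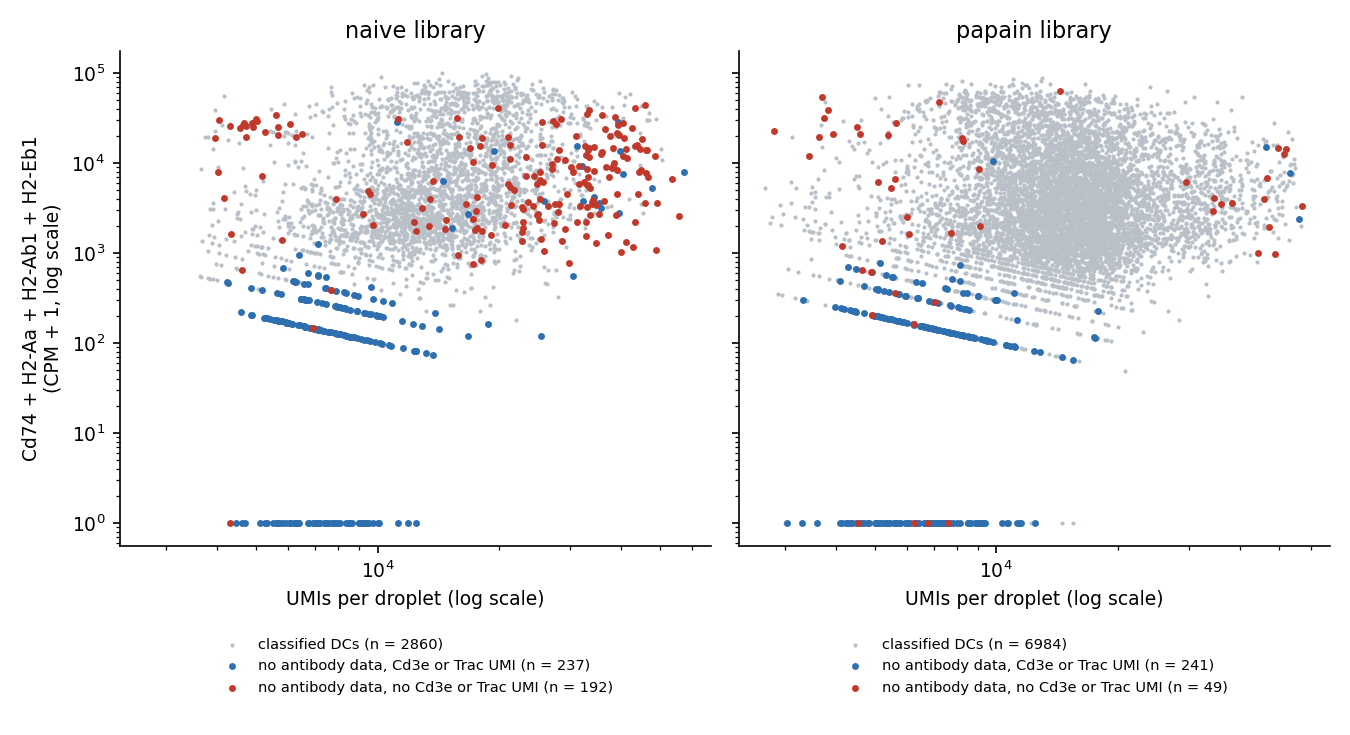
UMIs per droplet (log axis) against the summed CPM of *Cd74*, *H2-Aa*, *H2-Ab1* and *H2-Eb1* plus 1 (log axis) in the naive and papain libraries, each point 1 droplet. Unclassified droplets (red, 192 naive and 49 papain) lie among the classified DCs (grey) in class II level, at the deep end in the naive library, while most droplets with a *Cd3e* or *Trac* UMI (blue) lie far lower.

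The naive unclassified droplets were among the deepest of their library. Their depth ran from 3968 over a median of 27043.5 to 55718 UMIs, 1.95 times the median of 13876 UMIs in classified DCs. They had a median of 4661.5 detected genes, against 3041 in classified DCs. The share of UMIs on mitochondrial genes had a median of 3.88% and was 3.81% in classified DCs. Unclassified droplets made up 1.52% of the naive droplets of 10000 to 20000 UMIs (interval 1.02 to 2.18%), 9.27% from 20000 to 30000 UMIs (6.91 to 12.1%), 39.0% from 30000 to 40000 UMIs (30.7 to 47.7%) and 54.9% of those of 40000 UMIs or more (28 of 51, 40.3 to 68.9%). Below 10000 UMIs they made up 3.95% (2.75 to 5.47%), so that the share was lowest in the middle of the depth range.

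The papain unclassified droplets split into a shallow and a deep group. Of the 49, 34 had fewer than 10000 UMIs and 13 had 30000 or more, with 1 droplet in each of the bins between. Their median of 6271 UMIs was 0.422 times the 14844 UMIs of classified DCs. At 40000 UMIs or more they made up 9 of 146 droplets (6.16%, interval 2.86 to 11.4%), and between 10000 and 20000 UMIs 1 of 4680. Whether the deep droplets of either library held more than 1 cell was not tested.

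Antibody counts moved with depth in the droplets that had them. In classified naive DCs the median antibody count rose from bin to bin, from 6731 below 10000 UMIs to 15023 between 30000 and 40000 UMIs and 16331 at 40000 UMIs or more. In classified papain DCs it was 2433, 9040 and 13683.5 in the same bins. No barcode with antibody data had 20000 antibody counts or more in either library. The highest count was 19965 among 4433 naive and 19521 among 8178 papain barcodes, and 39 naive and 3 papain barcodes had 19000 or more. No unclassified droplet had a barcode in the antibody data of either library. Whether the deep unclassified droplets were left out of the antibody data for a high antibody count was not tested.

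**Figure D2:**
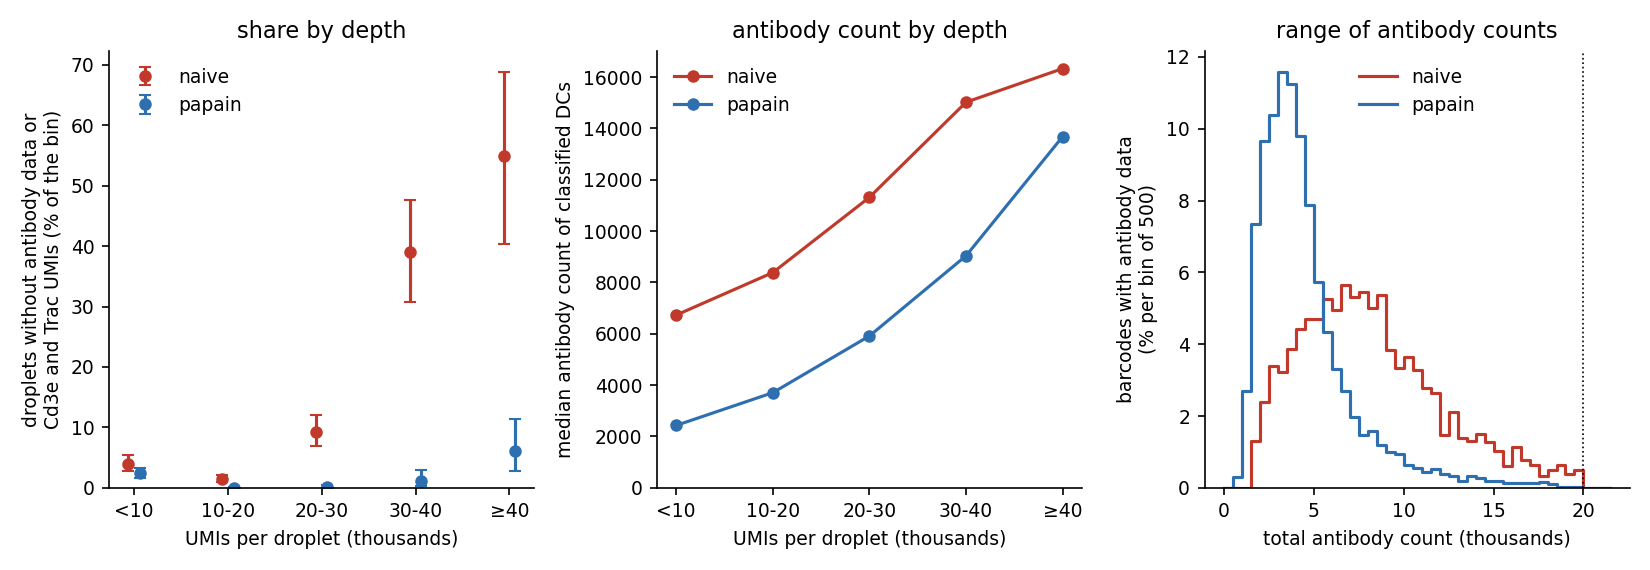
Left, share of all droplets of a depth bin that were unclassified, with exact 95% intervals; middle, median total antibody count of classified DCs by depth bin; right, histogram of total antibody counts of barcodes with antibody data (percent per bin of 500). At 40000 UMIs or more the unclassified share reached 54.9% (naive) and 6.16% (papain), and no antibody count reached 20000 (dotted line).

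Clustering the 241 droplets on their own expression gave 11 clusters of 10 to 32 droplets, numbered by size. In 9 of them, with 202 droplets, most droplets had a UMI of 3 or more of 7 cDC lineage genes (*Flt3*, *Zbtb46*, *Itgax*, *Batf3*, *Irf4*, *Irf8*, *Id2*), and these are called DC-like. That limit of over 50% of droplets was set after the clusters were seen. DC-like droplets made up 169 of 192 naive (88.0%, interval 82.6 to 92.3%) and 33 of 49 papain unclassified droplets (67.3%, 52.5 to 80.1%). In the naive library they had a median of 29045 UMIs, and 129 of them had 20000 UMIs or more. In the papain library the median was 9064 UMIs, and 14 had 20000 or more.

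Cluster 3 was B cell-like. All 13 B cell genes were detected in it, and each of its 27 droplets (19 naive, 8 papain) had 3 or more of them, with a median of 11. Summed over the cluster, *Igkc*, the kappa light chain, was at 5904 CPM and *Cd79a*, part of the B cell receptor, at 1646 CPM, against 12.2 and 3.18 CPM in the other unclassified droplets. *Ms4a1*, which encodes CD20, was at 605 CPM. Of the 7 cDC lineage genes 4 were detected in the cluster, and 3 of its 27 droplets had 3 or more. *Zbtb46* and *Flt3*, which mark cDCs, had no UMI in it. Of 12 migratory DC genes 10 were detected, and 25 droplets had 3 or more, with a median of 4. Class II in these droplets was at a median of 607% of the classified median and never below 427%, and the depth was 2825 to 8229 UMIs. The sort was gated on B220- cells, a gate that would remove most B cells. The cluster held 9.90% of the naive (interval 6.06 to 15.02%) and 16.3% of the papain unclassified droplets (7.32 to 29.7%).

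Cluster 10 was led by *Gzma*, a granule protease of cytotoxic cells (1600 CPM, with UMIs in 3 of its 12 droplets), *Ctla2a* (622 CPM), *Nkg7*, a cytotoxic granule protein (463 CPM), *Ms4a4b* (886 CPM) and *Cd28*, the T cell costimulatory receptor (317 CPM). Of 13 T cell genes 12 were detected in it, and of 12 NK cell and ILC genes 10. *Cd3d* was at 410 CPM, *Cd3g* at 238 CPM and *Trbc1*, a T cell receptor constant region, at 582 CPM, while *Cd74* was at 132 CPM. It held 4 naive and 8 papain droplets, of 4321 to 7692 UMIs. Of its 12 droplets 11 had 3 or more of the T cell genes, with a median of 7. For the NK cell and ILC genes it was 5 droplets, with a median of 1. Droplets with *Cd3e* or *Trac* UMIs were left out by the choice, and no single droplet was assigned to T cells or NK cells.

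**Figure D3:**
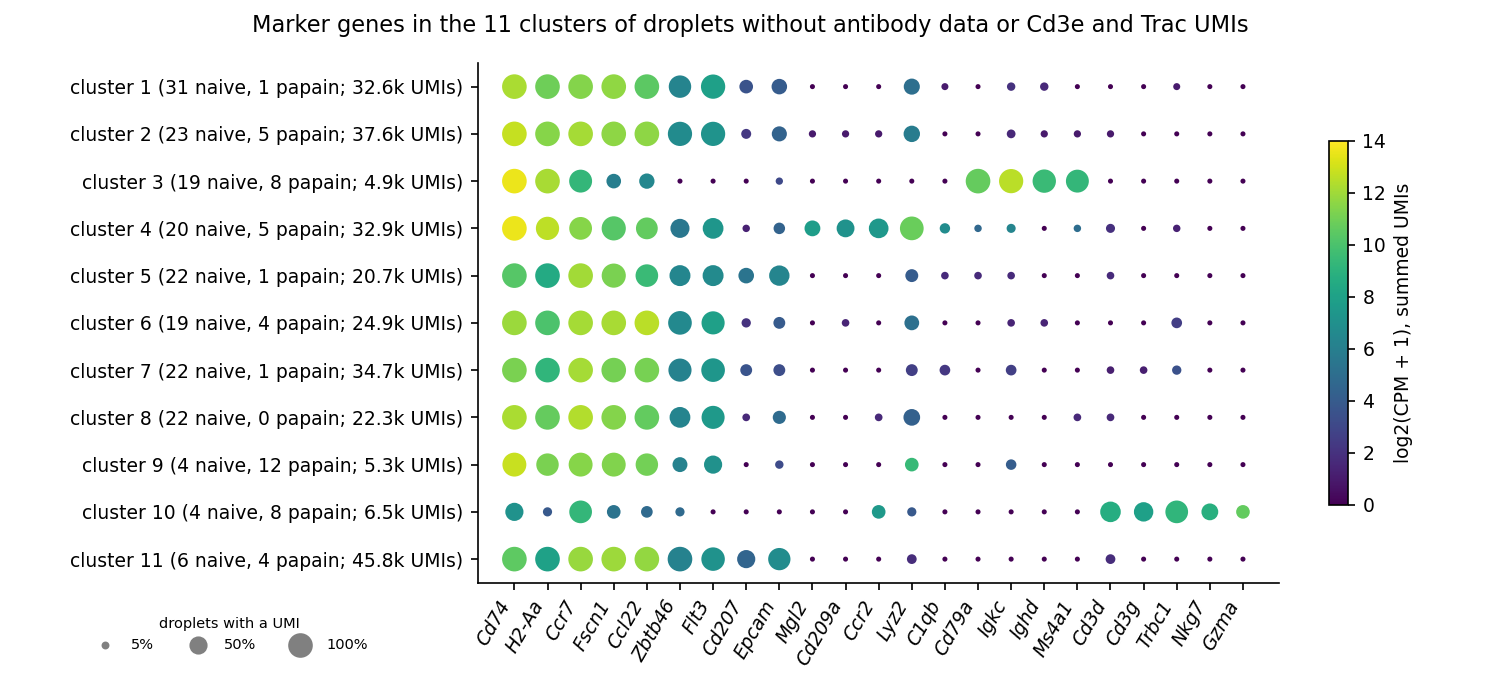
Levels of 23 marker genes in the 11 clusters, as log2 of CPM plus 1 from summed UMIs (colour) and the percent of droplets with a UMI (point size; the smallest points are 0%), with droplet numbers and the median depth beside each cluster. Cluster 3 carries the B cell genes, cluster 10 the T cell and NK cell genes, cluster 4 *Mgl2*, *Cd209a*, *Ccr2* and *Lyz2*, and *Ccr7* is lowest in clusters 3 and 10.

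Within the DC-like droplets, the clusters differed by the genes that separate the DC classes. Cluster 1 (31 naive, 1 papain) was led by *Smagp*, *Tnfrsf4*, *Laptm4b* and *Dnase1l3*, with *Tnfrsf4*, the receptor OX40, at 451 CPM against 65.5 CPM in the other unclassified droplets. The 10 genes that most set naive classified cDC1s apart from the other classes, among them *Laptm4b*, *Dnase1l3*, *Tnfrsf4* and *Epsti1*, summed in the naive droplets of cluster 1 to 83.7% of their level in cDC1s, and to 16.6 to 22.8% in those of clusters 2 and 4 to 8. The classical cDC1 genes were near the floor, with *Xcr1* at 9.16 CPM and no UMI of *Clec9a*. They were sparse in the classified DCs too. Of the naive ones 17.5% were cDC1s by class, while 3.78% had a UMI of *Xcr1* and 1.43% one of *Clec9a*. Clusters 5 (22 naive, 1 papain) and 11 (6 naive, 4 papain) had *Epcam*, the adhesion molecule of Langerhans cells (LCs), among their leading genes, at 82.0 and 107 CPM. *Cd207*, which encodes langerin, was at 41.0 and 22.0 CPM, and both clusters had low class II, at a median of 42.3% and 49.6% of the classified median. The 10 genes of naive LCs summed to 92.5% of their LC level in the naive droplets of cluster 5. The 10 genes of naive cDC2s, which include *H2-Ab1* and *Lyz2*, summed to 195% of their cDC2 level in cluster 4, to 64.2%, 38.4%, 26.6% and 37.7% in clusters 2, 6, 7 and 8, and to 98.9% in the B cell-like cluster 3.

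Cluster 4 (20 naive, 5 papain) carried monocyte and macrophage genes beside cDC genes. It was led by *Mgl2*, which encodes CD301b (212 CPM), the lectin *Cd209a* (135 CPM) and *Mmp12*, a metalloproteinase (220 CPM). In the other unclassified droplets *Mgl2* was at 0.196 CPM. In cluster 4 UMIs of *Mgl2* were found in 36% of the droplets, of *Cd209a* in 48% and of *Mmp12* in 24%. No papain unclassified droplet had an *Mgl2* UMI. *Ccr2*, the receptor for monocyte chemoattractants, was at 179 CPM and *Lyz2*, lysozyme, at 1770 CPM. Of the 11 measured monocyte and macrophage genes all were detected, and 23 of its 25 droplets had 3 or more. The class II median was 666% of the classified median, and 23 droplets also had 3 or more cDC lineage genes. *C1qb*, a complement gene of macrophages, was at 105 CPM but had UMIs in 3 of the 25 droplets.

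The other DC-like clusters were led by chemokine genes and by genes of mixed function. Cluster 6 (19 naive, 4 papain) had *Ccl17*, a chemokine that attracts CCR4+ T cells, at 1337 CPM against 380 CPM in the other unclassified droplets, and *Ccl22* at 5900 CPM. Cluster 7 (22 naive, 1 papain) had *Cxcl1* at 723 CPM and *Csf1* at 132 CPM, and cluster 8 (22 naive) had *Ptgs2*, which encodes a cyclooxygenase, at 512 CPM. Cluster 2 (23 naive, 5 papain) was led by *Mucl1* (366 CPM) and *Serpinb9b* (173 CPM). Cluster 9 held 12 of the 33 papain and 4 of the 169 naive DC-like droplets, with a median of 5291.5 UMIs over all 16. Its leading genes *Tlx2* and *Pla2g2d* were each found in 2 of the 16 droplets, while *Ccr7* was at 2780 CPM and *Fscn1* at 2578 CPM. These genes define the clusters and were not tested.

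Each DC-like droplet was also set beside the 15 classified DCs of its library with the most similar expression and given the class most frequent among them. The measure returns 1 of these 3 classes for any droplet, and all 19 naive B cell-like droplets were nearest to cDC2s too, so a cDC2 vote is no sign of identity. Treated in the same way, classified naive DCs had their own class in 89.2% (LCs), 92.6% (cDC1s) and 99.3% (cDC2s). Of the 169 naive DC-like droplets, 25 were nearest to LCs (14.8%), 25 to cDC1s (14.8%) and 119 to cDC2s (70.4%). By the same measure the 2860 naive classified DCs were at 13.6%, 16.5% and 69.9%. Of the naive droplets in cluster 1, 24 of 31 were nearest to cDC1s, and of those in cluster 5, 17 of 22 were nearest to LCs. All 20 naive droplets of cluster 4 were nearest to cDC2s.

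Among droplets of 20000 UMIs or more, 12.4% of the 129 naive DC-like droplets were nearest to LCs, against 3.45% of the 493 classified DCs. The measure undercounted deep LCs, since 8.72% of these classified DCs were LCs by their antibody class. Nearest to cDC1s were 17.1% of the DC-like droplets and 19.9% of the classified DCs, of which 22.9% were cDC1s by class. In the papain library 8 of 14 deep DC-like droplets were nearest to LCs (57.1%), against 19.3% of 1379 classified DCs, of which 25.5% were LCs by class, and none of the 19 shallower DC-like droplets was. Deep naive LCs had a median of 15369 antibody counts, cDC1s of the same library 13677 and cDC2s 10379. The papain medians were 10748, 7061 and 6171 in the same order. The part of antibody counts in these shares was not tested.

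**Figure D4:**
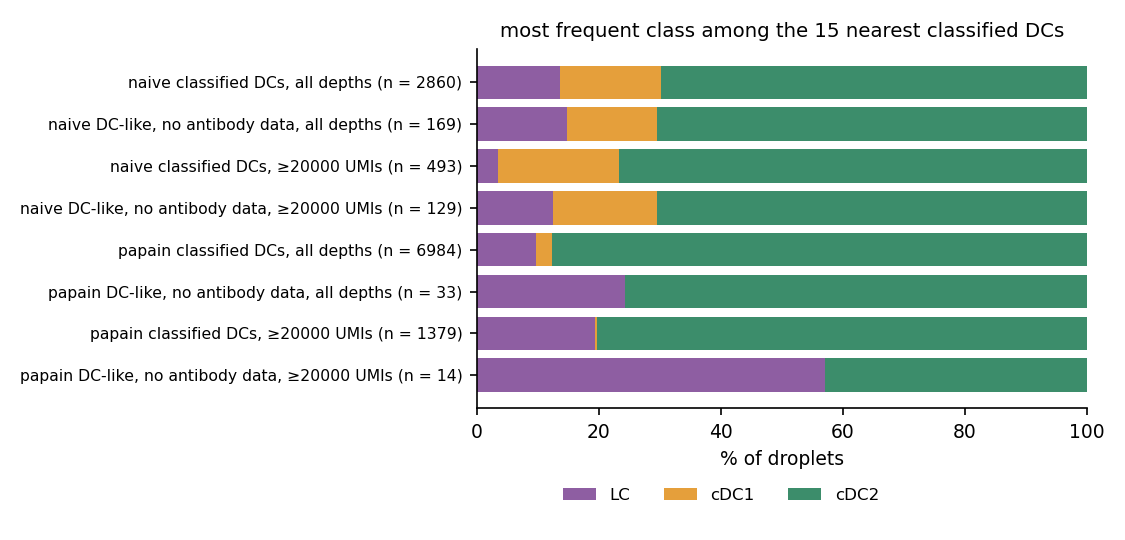
Share of droplets whose 15 nearest classified DCs of the same library were most often LCs, cDC1s or cDC2s (horizontal bars, percent), for classified DCs and for DC-like unclassified droplets, at all depths and at 20000 UMIs or more. The naive shares were close at all depths (14.8% against 13.6% LCs), and 57.1% of the 14 deep papain droplets were nearest to LCs.

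In the naive library, gene levels from the summed UMIs of the 192 unclassified droplets were set beside those of classified DCs. Of 2624 genes with at least 50 CPM in either group, 6 were 2-fold or more higher (0.229% of all) and 6 were 2-fold or more lower (0.229%), and the median log2 ratio was 0.05. Of the higher genes 3 are B cell genes. Intervals of ratios are for UMIs without the 1 CPM that was added to each level, so for genes near 0 they can lie above the ratio printed. *Igkc* was at 122 CPM against 9.64 CPM (log2 ratio 3.54, interval 3.48 to 3.85), with UMIs in 16.7% of unclassified droplets and 3.39% of classified DCs. *Ebf1*, a B cell transcription factor, was at 52.6 against 13.3 CPM (log2 ratio 1.91) and *Ighm*, the heavy chain of IgM, at 64.2 against 20.2 CPM (1.62). The 19 B cell-like droplets, with 1.94% of the depth, held 88.7% of the *Igkc* UMIs and 69.5% of those of *Ebf1*. Of the *Ighm* UMIs they held 48.8% and cluster 4 35.3%, and 1 droplet held 30.3%. The other 3 were *Mucl1* (log2 ratio 1.34, with UMIs in 7.29% of unclassified droplets), *Serpinb9b* (log2 ratio 1.30), a serpin, and *Itgb8* (1.18), the integrin chain that activates TGF-beta. *Itgb8* had UMIs in 39.6% of unclassified droplets and 13.6% of classified DCs.

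The lower genes in naive unclassified droplets were *Retnla* (log2 ratio -1.48), a secreted resistin-like protein, *Ccl4* (-1.39), a chemokine, *Ifitm3* (-1.34), *Wfdc17* (-1.05), *Lyz1* (-1.05) and *Lyz2* (-1.03). *Lyz2* was at 229 CPM against 469 CPM, although 33.3% of the unclassified droplets and 18.4% of the classified DCs had a UMI. Cluster 4 held 81.9% of the *Lyz2*, 75.4% of the *Ccl4* and 66.9% of the *Retnla* UMIs of the unclassified droplets. For *Retnla*, 1 classified DC held 45.4% of all UMIs of that group, and the log2 ratio was 0.04 when the CPM of droplets were averaged and 0.03 without droplets of 40000 UMIs or more.

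Migratory DC genes were close to their level in classified DCs. Of 12 genes 11 had 50 CPM, none was 2-fold higher or lower, and the median log2 ratio was 0.13. *Ccr7* was at 3840 against 3460 CPM (log2 ratio 0.15), *Fscn1* at 2734 against 2048 CPM (0.42), *Ccl22* at 2351 against 1532 CPM (0.62) and *Cd40*, the receptor for CD40L, at 470 against 360 CPM (0.38). *Ccl5* was lower, at 8719 against 11357 CPM (-0.38). All 7 cDC lineage genes stayed under 2-fold, from -0.06 for *Batf3* to 0.52 for *Irf8*. All 6 class II genes that reached 50 CPM were lower by less than 2-fold, with a median of -0.57, from *H2-Aa* (2178 against 2942 CPM, -0.43) to *H2-Ab1* (1093 against 1756 CPM, -0.68). The medians of *Cd74* and *H2-Aa* over droplets went the other way, as given above. None of the 12 immediate early and heat shock genes differed 2-fold, and their median was 0.03.

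A comparison among deep droplets was added after the data were seen. The 129 naive DC-like droplets of 20000 UMIs or more were set beside the 493 classified DCs past the same limit, with medians of 33178 and 23405 UMIs, so that only the minimum depth was shared. Of 2675 genes, 3 were 2-fold or more higher (0.112%) and 35 lower (1.31%). Among the lower ones were 5 of the 7 class II genes. *H2-Ab1* was at 1043 against 2772 CPM (log2 ratio -1.41, interval -1.46 to -1.37), *H2-Eb1* at 1720 against 3670 CPM (-1.09), *H2-DMa* and *H2-DMb1*, which load peptide onto class II, at -1.64 and -1.60 on the log2 scale, and *Ciita*, the transactivator of class II, at -1.28. *Cd74* (-0.92) and *H2-Aa* (-0.91) stayed just under 2-fold. Of the monocyte and macrophage genes that reached 50 CPM, all 3 were lower in summed CPM. *Lyz2* was at 208 against 1126 CPM (-2.43), *Ccr2* at 14.8 against 64.2 CPM (-2.04) and *Cd68* at 23.1 against 52.0 CPM (-1.13). The share of droplets with a *Lyz2* UMI was not lower, at 41.1% of the unclassified and 39.8% of the classified ones. For *Ccr2* it was 8.53% and 18.5%. *Mgl2* (-1.49) and *Cd209a* (-1.95) were lower as well, with *Cd209a* UMIs in 8.53% of the unclassified and 16.6% of the classified droplets.

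*Ccr7* was higher by 0.48 on the log2 scale in the same comparison, and *Itgb8* (1.07), *Serpinb9b* (1.03) and *Cdh2* (1.08), which encodes N-cadherin, were the 3 genes past 2-fold. The median class II level per droplet was 159% of the classified median in the 129 deep unclassified droplets (quartiles 74.4 and 311%) and 277% in the deep classified DCs (quartiles 95.5 and 765%). The quartile ranges overlapped. In all DC-like naive droplets, 3 genes were higher (0.114% of 2622) and 5 lower (0.191%), and the same 3 and 5 were past 2-fold when all unclassified droplets were used.

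Depth was closer within bins of 10000 UMIs, which were also added after the data were seen. From 30000 to 40000 UMIs, 53 DC-like droplets with a median of 34239 UMIs stood beside 59 classified DCs with 32395 UMIs. *H2-Ab1* was at 1060 against 2989 CPM there (log2 ratio -1.49), *H2-DMa* at -1.47, *Lyz2* at 306 against 749 CPM (-1.29) and *Mgl2* at -0.92 on the log2 scale. The median class II level was 191% against 395% of the classified median. From 20000 to 30000 UMIs, with 48 droplets against 417 and medians of 25213.5 and 22620 UMIs, *H2-Ab1* was at 623 against 2604 CPM (-2.06) and *Lyz2* at 42.3 against 1073 CPM (-4.63). The median class II level was 95.8% against 258%. In both bins all 7 class II genes lay lower and *Ccr7* higher (0.60 and 0.28 on the log2 scale). *Itgb8* (0.90 and 0.74) and *Serpinb9b* (0.71 and 0.68) stayed under 2-fold in both, and *Cdh2* was at 1.77 and 0.27.

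**Figure D5:**
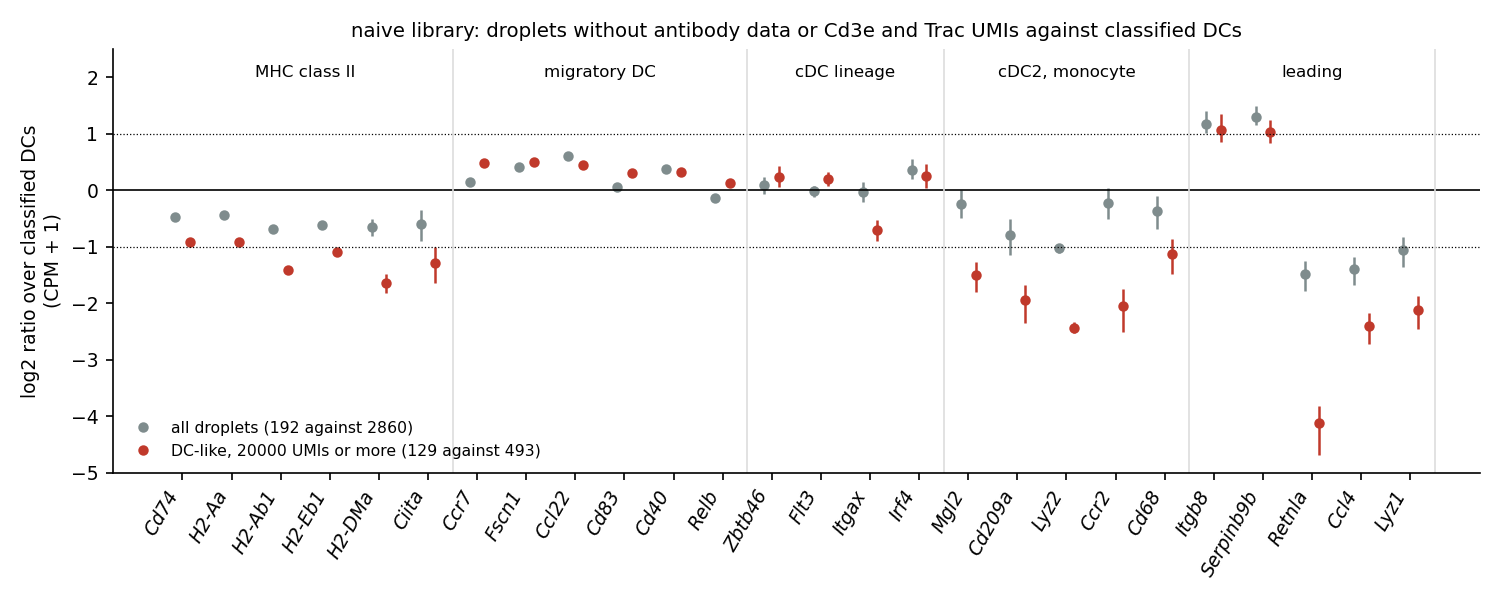
Log2 ratios of 26 genes in the naive library, unclassified droplets over classified DCs (CPM plus 1), for all droplets (grey, 192 against 2860) and for DC-like droplets of 20000 UMIs or more (red, 129 against 493); bars are exact 95% intervals of counting error and dotted lines mark 2-fold. Class II, *Mgl2*, *Cd209a*, *Lyz2*, *Ccr2* and *Cd68* lie lower among droplets of 20000 UMIs or more, with *Lyz2* at -2.43, while *Ccr7* and *Fscn1* lie above 0 in both.

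In the papain library, 68 of 2871 genes were 2-fold or more higher in the 49 unclassified droplets (2.37%) and 15 were lower (0.522%). The highest ratios were those of lymphocyte genes. *Igkc* was at 315 CPM against 2.51 CPM, *Cd79a* at 87.6 against 0.433 CPM and *Ebf1* at 103 against 1.12 CPM, and the 8 B cell-like droplets held all UMIs of the first 2 and 98.8% of those of *Ebf1*. All 5 B cell genes that reached 50 CPM were higher, with a median log2 ratio of 5.62. *Ctla2a*, *Ms4a4b* and *Satb1*, a chromatin organizer of T cells, had 46 of 46, 95.7% and 60.7% of their UMIs in the 8 droplets of cluster 10. *Gzma*, at 147 against 0.539 CPM, was the only higher gene of the NK cell and ILC list.

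*Lyz2* was at 367 CPM in papain unclassified droplets and 26.7 CPM in classified DCs (log2 ratio 3.73). The 5 droplets of cluster 4 held 96.7% of these UMIs and 1 droplet 41.1%. *C1qa* and *C1qb* were higher as well (log2 ratios 4.97 and 4.85), but 98.2% of the 110 *C1qa* UMIs and all 57 *C1qb* UMIs came from 1 droplet each. Among the lower genes were *Tubb2b* (34.1 against 110.1 CPM, log2 ratio -1.66), *Hmgn3* (83.9 against 263 CPM, -1.64), *Fabp5*, a fatty acid-binding protein (1485 against 3143 CPM, -1.08), and *Mki67*, a proliferation marker (38.9 against 83.4 CPM, -1.08). When only the 33 DC-like droplets were used, 49 genes were higher (1.71% of 2863) and 7 lower (0.244%). Of the 68 higher genes 34 stayed past 2-fold, among them *Epcam* and *Itgb8*. Of the 15 lower genes 7 did, among them *Tubb2b* and *Hmgn3*. Both *Epcam* and *Itgb8* are among the genes that most set papain classified LCs apart from the other classes. So are *Mtss1*, *Serpinb6a*, *Cryaa*, *Igsf3* and *Gpd2*, also counted as higher, and *Cd207*, *Anxa1* and *Pcyt1a*, which were not. This LC set summed in the 33 DC-like droplets to 78.7% of its LC level, against 15.8% in cDC2s. At 20000 UMIs or more neither *Epcam* nor *Itgb8* was counted as higher. The genes 2-fold higher in both libraries were *Igkc*, *Ebf1* and *Ighm*, which are B cell genes, and *Itgb8* and *Mucl1*. Higher were 0.229% of all naive and 2.37% of all papain genes. None was lower in both, which says little where 0.229% of the naive and 0.522% of the papain genes were lower.

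Class II and migratory DC genes of the papain droplets stayed within 2-fold. Of the class II genes 5 had 50 CPM, with a median log2 ratio of 0.13, and of the migratory DC genes 11, with a median of -0.13. Per droplet *Ccr7* had a median of 1831 CPM and UMIs in 45 of 49 unclassified droplets, against 3250 CPM in classified DCs. The deep DC-like papain droplets, 14 against 1379 classified DCs of 20000 UMIs or more, had a median class II level of 112% against 113%.

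The share of droplets with UMIs of 3 or more genes of a list was taken for lists of other cell types. Classified DCs had UMIs of some of these genes too, such as *Lyz2* in 18.4% and *Cd8a* in 12.4% of the naive ones. For B cell genes it was 11.5% of naive (interval 7.32 to 16.8%) and 16.3% of papain unclassified droplets (7.32 to 29.7%), against 1.43% and 0.229% of classified DCs. Among DC-like droplets it was 3 of 169 in the naive library (1.78%) and 0 of 33 in the papain library, which allows up to 10.6%. T cell genes were found in 19.3% of naive unclassified droplets and 7.52% of classified DCs. After thinning to 4724 UMIs per droplet, which left 180 and 2808 droplets, the shares were 2.97% and 1.89%. In the papain library the shares were 18.4% and 5.86% before and 14.9% and 0.926% after thinning, which left 37 and 6881 droplets. Among papain DC-like droplets the T cell share was 2 of 33 (6.06%, interval 0.743 to 20.2%) before thinning and 0.0760% of 27 after it. Monocyte and macrophage genes were found in 14.1% of naive and 16.3% of papain unclassified droplets, against 7.45% and 1.86% of classified DCs, and all of these unclassified droplets were DC-like. After thinning the shares were 5.40% against 4.12% in the naive library and 10.3% against 0.321% in the papain one. Plasmacytoid DC genes were found in 34.9% of naive unclassified droplets and 15.1% of classified DCs, and in 1.98% and 2.27% after thinning. In the papain library these shares were 20.4% and 29.3% before and 1.59% and 5.44% after thinning. No unclassified droplet had 3 of the 5 endothelial genes, which allows up to 1.90% of the naive and 7.25% of the papain ones. The neutrophil, mast cell, stromal, keratinocyte and erythroid lists had only 1 or 2 genes in the files, too few for this measure.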

How the data were processed

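Single-cell libraries were prepared with a droplet-based 3′ kit and, per the labels, processed with Cell Ranger 3.0.1 on mm10 and Partek. The authors deposited, for each droplet, log2 values of CPM plus 1 for 18049 genes, a DC class taken from antibody counts and a label for *Cd3e* and *Trac*. The deposited antibody data give total antibody counts per barcode. The deposited total column was the sum of log2 values, used as a score to check the files, and the deposited mitochondrial percent was a share of log2 values and was not used. UMIs were recovered from the log2 values, and every value at or below 50 UMIs (100%) lay within 0.02 of a whole number. Depth was 3637 to 57378 UMIs per naive and 2682 to 57150 per papain droplet.

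Levels are summed UMIs per 1000000 (CPM), with 1 CPM added for log2 ratios. A gene was counted as higher or lower at 2-fold or more where the higher group had at least 50 CPM. Intervals are exact (Clopper-Pearson for shares, conditional binomial for ratios, Poisson for levels). No droplet filter and no doublet caller were applied. The study's reporting summary gives a doublet gate on forward scatter as general gating, and the methods of this sort do not name one. Clustering used scanpy 1.11.5 with 2000 variable genes, 15 principal components, 10 neighbours and Leiden resolution 1 on both libraries together. The nearest classified DCs were searched with scikit-learn 1.9.0. Genes were named from 24 lists, with 171 of 213 list genes present in the files, and as the 10 highest (with a UMI in at least 10% of droplets) and 10 lowest ratios per library and the 10 leading genes per cluster. *Mucl1*, *Cdh2* and genes counted in both libraries were named after their values were seen. Barcodes were compared, and 2 expression barcodes were shared by the libraries, none of an unclassified droplet. The ratios and their intervals were tested on Poisson counts simulated with known folds from the summed profile of naive classified DCs. Such counts lack the uneven spread of UMIs over droplets, so the intervals were not tested for it. The droplets, lists and limits were chosen with earlier results of these data known.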

Additional observations from a re-analysis of the deposited data

Results flagged for a closer look

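The log2 ratio of *Lyz2* in unclassified droplets over classified DCs went in opposite directions, with -1.03 for naive and 3.73 for papain droplets, a gap of 4.76. Each ratio is against the classified DCs of the same library, which were at 469 CPM (naive) and 26.7 CPM (papain). The gap therefore rests on the levels of both sets, given above. With 1 library per condition this gap was not tested. In both libraries cluster 4 held most of the *Lyz2* UMIs of unclassified droplets, 81.9% in the naive library and 96.7% in the papain library.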

How the results depend on the processing

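No paired analysis was possible because each condition had 1 library and no replicate number. Counts of genes depended on the limits. In the naive library 6 genes were higher and 6 lower of 2624. There were 3 lower with a pseudocount of 10 CPM, and 40 higher and 3 lower with the mean over droplets. At a minimum of 10 CPM there were 36 and 15, and without a minimum, with all 18049 genes counted, 127 and 81. A lower minimum takes in more genes, so counts at these limits are not shares of the same set. Among DC-like droplets 3 of 2622 genes were higher, and at 20000 UMIs or more 3 were higher and 35 lower of 2675. In the bin from 20000 to 30000 UMIs there were 18 and 60 of 2722, and from 30000 to 40000 UMIs 7 and 43 of 2745. Without droplets of 40000 UMIs or more 1 gene was lower. In the papain library 68 genes were higher and 15 lower of 2871. There were 6 lower with the pseudocount of 10 CPM, and 304 higher and 122 lower with the mean. At a minimum of 10 CPM there were 470 and 100, and without a minimum 1437 and 885 of 18049. Among DC-like droplets 7 of 2863 were lower, and among deep DC-like droplets 35 of 2866 were higher. Without droplets of 40000 UMIs or more there were 231 higher and 62 lower. Of these settings, those on DC-like droplets or depth were added after the data were seen.

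The naive share with 3 class II genes went from 96.9% to 86.7% and that with 3 cDC lineage genes from 86.5% to 74.7% after thinning. The B cell share of 11.5% was 19.8% at 2 genes and 7.22% after thinning. At resolution 0.5 there were 7 clusters in place of 11. *Retnla* turned to 0.044 with the mean and 0.033 without the deepest droplets. Among papain DC-like droplets, which leave out the lymphocyte clusters, log2 ratios turned for C230085N15Rik (-1.76), *Cd79a* (-0.52), *Ctla2a* (-0.23), *Gimap6* (-0.85), *Igkc* (-1.81) and *Satb1* (-2.72). At 20000 UMIs or more they were -1.63, -0.65, -0.33, -0.93, -1.77 and -2.32, with *Ets1* at -0.61 and *Ms4a4b* at -0.50. Of 400 values of 40 named genes, 244 stayed within their interval, 140 left it with the same sign or uncalled, and 16 turned. A filter of 500 genes and 10% mitochondrial UMIs kept 189 of 192 naive and all 49 papain unclassified droplets. Depth limits what an undetected gene says, and 1 library per condition leaves the spread between animals unmeasured.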
